A study of Mus musculus with 4 samples.

Results

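The piRNA pathway and germ granule genes of the mouse testis were examined as a group of 36 genes among the 49492 gene rows of the deposited count table. The members were chosen by gene symbol: the PIWI genes, the Argonaute genes, the numbered Tdrd genes with Tdrkh, Dazl, and 20 further named genes; the rule itself uses no measured value. All 36 were found, and all are protein-coding in GENCODE mouse release 21. The libraries came from whole testis of male C57BL/6J mice, and by the labels every animal had received LPS, the bacterial lipopolysaccharide that activates innate immunity. The labels give a Spry1 knockdown (a hairpin against Spry1, 2 libraries) and a wild-type group with a control hairpin (2 libraries). They give neither the age of the animals, nor how the hairpin was delivered and into which cells, nor whether the replicates were separate animals, so the p-values reflect the spread among these 4 libraries alone, and that spread may be technical.

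Headings of the 4 count columns (LPS or NC, with a replicate number) differ from the sample titles. The LPS columns were taken to be the Spry1 knockdown and the NC columns the control hairpin, although LPS is part of all 4 titles. If the headings mean LPS against no LPS, every difference below belongs to that contrast, which cannot be told apart with the labels at hand. The groups are therefore named by their column headings, and a positive log2 fold change is higher in the LPS columns. The libraries held 17612342 to 22451132 counts. Spry1, the targeted gene, showed 26 and 17 counts in LPS libraries, against 45 and 41 in NC libraries, and this does not settle the reading of the headings, which was made with those counts known. Its edgeR call (log2 fold change -0.82 ± 0.28, SE; adjusted p = 0.0212) did not hold in DESeq2, nor in edgeR without LPS library 2 (-0.61), NC library 1 (-0.80) or NC library 2 (-0.83), with adjusted p between 0.0653 and 0.249 in those 4 fits. Markers of germ cells, Sertoli cells and Leydig cells were detected, and the labels give testis as the tissue.

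piRNAs are small RNAs of the germline that guide PIWI proteins, a branch of the Argonaute family, to transposon and other transcripts. Their precursors are cut on the surface of mitochondria, trimmed and methylated at the 3′ end, and loaded onto PIWI proteins. Tudor domain proteins bind methylated arginines of PIWI proteins and assemble the machinery into germ granules, the intermitochondrial cement of spermatocytes and the chromatoid body of spermatids. In mouse the pathway serves fetal germ cells, where it directs DNA methylation of transposons, and again pachytene spermatocytes and round spermatids, where PIWIL1 and pachytene piRNAs prevail.

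The members moved in both directions, and by small amounts. Of 34 members with enough counts to test, 12 were higher in the LPS columns, 7 were lower and 15 were not called by edgeR's quasi-likelihood test at a Benjamini-Hochberg adjusted p under 0.05, taken over all 20855 genes tested. Over all those genes 31.5% were called, 15.2% higher and 16.3% lower, against 55.9% of the tested members. The median log2 fold change was 0.02 over the members and 0.00 over all genes tested. The called members had a median absolute log2 fold change of 0.26, against 0.46 over all called genes, and the largest was 1.58-fold. The members were also more abundant, with a median of 28.9 TPM (a level scaled to gene length and library) against 7.30 TPM for the other genes tested. Higher counts make small differences easier to call, and the part of abundance in the share called was not tested. The libraries of the groups did not overlap in 25 of the 34 members (14 above and 11 below), and in 64.1% of all genes tested (32.1% above and 32.0% below). The numbers in each direction moved with the tool: DESeq2 called 6 members higher and 4 lower, and left uncalled Ago3, Exd1, Lsm14a, Mov10, Mov10l1, Piwil2, Pld6, Tdrd12 and Tdrd7, with adjusted p values of 0.0591 to 0.268. With library size as the only scaling, which moved the median of all genes to 0.07, 13 members were higher and 3 lower. Fewer members were called in each direction when any single library was left out. In whole testis, fewer cells of a type and less RNA per cell cannot be told apart.

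**Figure D1:**
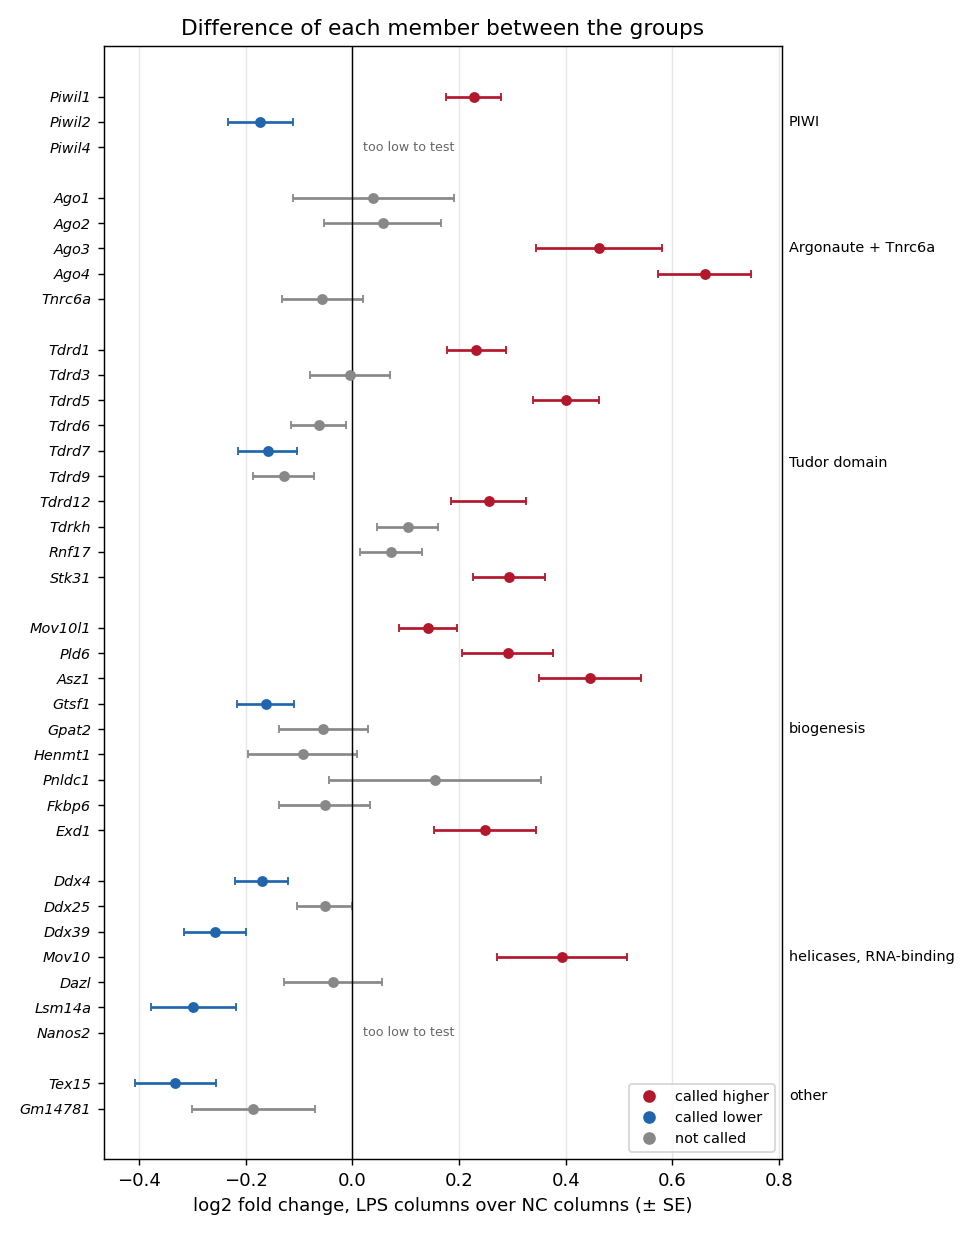
Log2 fold change of each tested member, LPS columns over NC columns (x axis, ± SE), with members grouped by role down the page. The 12 red points are called higher, the 7 blue ones lower and the grey ones are not called; Ago4 lies farthest right at 0.66 and Tex15 farthest left at -0.33.

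Promoter stretches are shown for 7 of the 14 members that carry 1 or both of the motifs known from regulators of this pathway in mouse: A-MYB (gene Mybl1), which binds a CNGTTA-type motif and drives many piRNA pathway genes at pachytene, and E-box factors such as TCFL5, which bind CACGTG. The 7 were picked by hand with the calls known, and 5 of them were called higher, so they do not represent the carriers. The carriers not shown are Pld6 and Tdrd12, called higher, Tdrd7, called lower, and Ddx25, Fkbp6, Gm14781 and Tdrkh, not called. Sequences are from RefSeq on GRCm38.p6, 5′ to 3′ on the gene's strand and ending before the RefSeq start site. Capitals mark CACGTG and any CNGTTA match on either strand.
Piwil1 (chr5:128736047-128736207, plus strand): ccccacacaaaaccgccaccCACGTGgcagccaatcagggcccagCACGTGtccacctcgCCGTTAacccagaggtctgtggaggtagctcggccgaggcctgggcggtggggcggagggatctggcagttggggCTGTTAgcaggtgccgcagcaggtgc
Mov10l1 (chr15:88982744-88982801, plus strand): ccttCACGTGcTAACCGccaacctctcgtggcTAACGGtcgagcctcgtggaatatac
Tdrd5 (chr1:156303471-156303516, minus strand): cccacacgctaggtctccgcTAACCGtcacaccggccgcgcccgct
Stk31 (chr6:49395464-49395509, plus strand): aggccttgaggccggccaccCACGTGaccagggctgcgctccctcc
Tdrd1 (chr19:56826178-56826208, plus strand): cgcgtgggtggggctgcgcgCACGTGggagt
Ddx4 (chr13:112652314-112652359, minus strand): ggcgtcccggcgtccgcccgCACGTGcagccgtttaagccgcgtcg
Tdrd9 (chr12:111971374-111971489, plus strand): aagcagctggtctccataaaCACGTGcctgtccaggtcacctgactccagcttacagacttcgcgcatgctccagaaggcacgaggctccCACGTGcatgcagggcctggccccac

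The Piwil1 and Mov10l1 stretches hold both motifs close together, with the first base of each match 179, 154, 139 and 64 bases before the start in Piwil1 and 246, 239 and 218 bases before it in Mov10l1. The RefSeq starts used for Piwil1, Tdrd5 and Mov10l1 lie inside the longer gene spans of the count table. The printed Piwil1 and Tdrd5 stretches lie wholly inside those spans. Of the 36 members, 29 have a promoter in the RefSeq table (250 bases before to 50 after the start, any listed start of a gene counted), among them all 12 that were called higher and 4 of the 7 called lower. CACGTG was present in 9 of the 29, against 8.09% of the 27025 genes in the table. Those 9 were Mov10l1, Piwil1, Pld6, Stk31 and Tdrd1 among the members called higher, Ddx4 among those called lower, and Ddx25, Fkbp6 and Tdrd9 among those not called. CNGTTA was present in 7 of the 29, against 25.9% of genes: Mov10l1, Piwil1, Tdrd12 and Tdrd5 among the members called higher, Tdrd7 among those called lower, and Gm14781 and Tdrkh among those not called. Its stricter form CCGTTA was in 3 (Mov10l1, Piwil1 and Tdrd12, all called higher), against 3.15% of genes. Of the 29 members with a promoter, 12 were called higher whatever motifs they carry. A match is a description of the letters and not a binding site, and the motifs were chosen with the calls known. Of the other motifs searched on both strands, CCGTTG was in 4 members (5.90% of genes), AACNGTT in 1 (5.01%), GGGCGG in 16 (38.2%), TGACGT in 2 (8.37%), TGACGTCA in 0 (2.03%) and an interferon-stimulated response element pattern in 2 (3.99%). Every CCGTTA match is also a CNGTTA match, and every TGACGTCA match is also a TGACGT match.

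Among the PIWI genes, Piwil1 was higher and Piwil2 lower in the LPS columns. Piwil1, the PIWI protein of pachytene spermatocytes and round spermatids, had 386 and 403 CPM (counts relative to TMM-scaled library size) in the LPS columns against 347 and 327 CPM in the NC columns. Both LPS libraries lay above both NC libraries. Its log2 fold change was 0.23 ± 0.05 (SE; edgeR, Benjamini-Hochberg adjusted p = 0.000834), and it was called higher under all 10 alternatives, with adjusted p values up to 0.023. Piwil2, which acts from fetal germ cells onwards, had 76.7 and 76.9 CPM in the LPS columns against 89.8 and 83.4 CPM in the NC columns. The groups did not overlap, and the NC libraries differed from each other by more than the LPS libraries did. Its log2 fold change was -0.17 ± 0.06 (edgeR, adjusted p = 0.0273), which was not called in DESeq2, with library size as the only scaling (-0.11), or without LPS library 1 (-0.17), LPS library 2 (-0.17) or NC library 1 (-0.11). Its adjusted p over the alternatives ranged from 0.0178 to 0.348. Piwil4, the nuclear PIWI protein of fetal germ cells, was near the detection limit, with 2 and 0 counts in the LPS columns and 5 and 7 in the NC columns. Its ratio was 0.189 with an exact binomial 95% interval of 0.0205 to 0.847, which covers counting error only, and it was too low for the test across genes.

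Ratios of a pair of members within a library do not depend on how libraries are scaled. Pairs were chosen after the calls were seen, and with 2 libraries a group no exact permutation test can reach 0.05, so the ratios are a description. Reads of Piwil1 outnumbered those of Piwil2 by 5.03 and 5.23 in the LPS columns and by 3.86 and 3.92 in the NC columns. The ratio of Tdrd1 to Tdrd7 reads was 1.08 and 1.09 in the LPS columns and 0.823 and 0.829 in the NC columns. These are reads without correction for gene length. In TPM, Tdrd1 was below Tdrd7 in every library, at 76.3 and 82.4 against 97.0 and 104 in the LPS columns. The NC columns had 63.6 and 63.0 TPM for Tdrd1 and 106 and 104 TPM for Tdrd7. Reads of Mov10l1 against Ddx4 stood at 0.250 and 0.249 in the LPS columns and at 0.203 and 0.199 in the NC columns. In each of these pairs the groups lay apart by more than the libraries within a group. Each sets a member called higher over a member called lower, so a higher ratio in the LPS columns follows from the calls. Mov10l1 to Mov10, both called higher, went the other way, at 12.47 and 14.15 in the LPS columns and 15.31 and 16.23 in the NC columns. The remaining pairs computed were higher in the LPS columns.

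**Figure D2:**
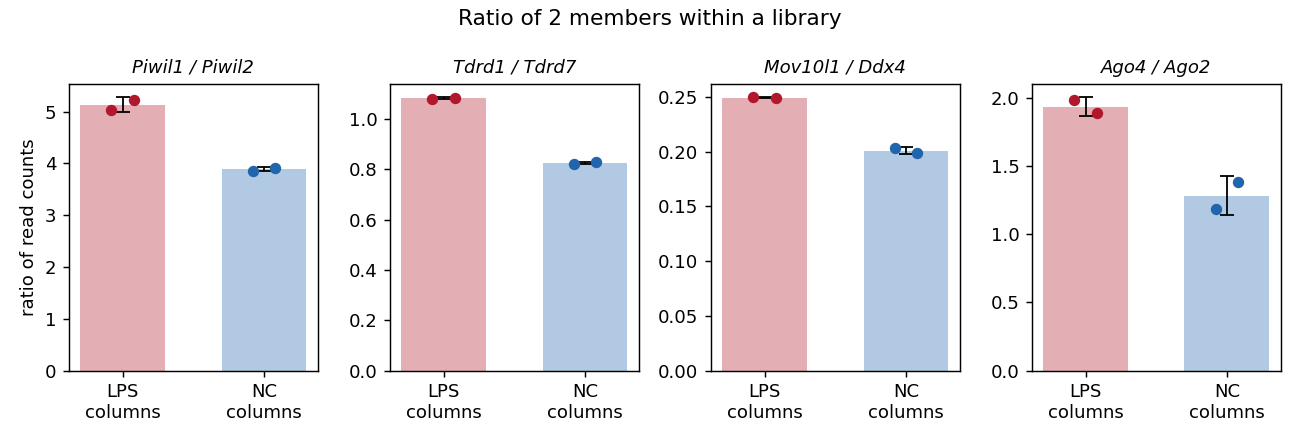
Ratio of read counts of 2 members within each library (y axis, each panel its own scale from 0), LPS columns left and NC columns right; points are libraries, bars are means and error bars SD (n = 2). Piwil1/Piwil2 is 5.03 and 5.23 in the LPS columns and 3.86 and 3.92 in the NC columns, and the groups do not overlap in any panel.

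Of the Argonaute genes, whose products carry microRNAs, Ago4 and Ago3 were higher and Ago1 and Ago2 were not called. Ago4, which in mouse is linked to meiotic entry and to silencing of the sex chromosomes in meiosis, had 26.2 and 27.4 CPM in the LPS columns and 17.0 and 16.8 CPM in the NC columns. The replicates of each group were close together and the groups far apart. Its log2 fold change of 0.66 ± 0.09 (SE) was the largest among the members (edgeR, Benjamini-Hochberg adjusted p = 1.94e-07), and it ranged from 0.63 to 0.72 over the alternatives, with the call made in all of them. Ago3 had 11.4 and 13.3 CPM in the LPS columns and 9.22 and 8.67 CPM in the NC columns. The difference of 0.46 ± 0.12 on the log2 scale (edgeR, adjusted p = 0.00246) did not pass the test without LPS library 2 (0.35). Ago3 and Ago4 both lie on the minus strand of chromosome 4 in mm10, with Ago1 between them. Ago3 spans 126331704 to 126429556 and Ago4 spans 126489541 to 126533472. Ago1 had 5.48 and 6.55 CPM in the LPS columns and 5.54 and 6.14 CPM in the NC columns, and the groups overlapped. The log2 fold change was 0.04 ± 0.15. Ago2, the member of this family that cuts its targets, had 13.2 and 14.5 CPM against 14.4 and 12.1 CPM, a log2 fold change of 0.06 ± 0.11. Exons of Ago2 overlap those of Chrac1 on the opposite strand, with 5400 and 4893 counts in the LPS columns and 5833 and 5722 in the NC columns. The strand setting of the counting is not given, so reads in that overlap cannot be assigned with certainty. The signs for Ago1 and Ago2 changed when single libraries were left out. Per gene length, Ago4 made up 61.8% and 59.6% of the TPM of the 4 Argonaute genes in the LPS columns and 51.7% and 52.8% in the NC columns. Tnrc6a, which binds Argonautes and recruits the deadenylation machinery, was not called at -0.06 ± 0.08, and the sign turned to 0.007 with library size as the only scaling and to 0.003 without NC library 1.

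The Tudor domain genes were mostly abundant, and 4 of 10 were higher, 1 lower and 5 not called. Over all genes tested, 31.5% were called, 15.2% higher and 16.3% lower. Tdrd5, required for chromatoid body assembly and transposon silencing in mouse, had 112 and 127 CPM in the LPS columns and 92.5 and 88.0 CPM in the NC columns. The LPS libraries differed from each other by more than the NC libraries did, and both lay above them. Its log2 fold change was 0.40 ± 0.06 (SE; edgeR, Benjamini-Hochberg adjusted p = 3.2e-06), between 0.31 without LPS library 2 and 0.49 without LPS library 1. Its exons overlap those of 4930518J20Rik on the opposite strand, which was lower at -0.28 ± 0.07. Because the strand setting of the counting is not given in the sources used here, reads in the overlap cannot be assigned with certainty.

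Stk31, which joins a Tudor domain to a kinase-like domain, had 54.7 and 54.9 CPM in the LPS columns and 43.7 and 45.7 CPM in the NC columns, without overlap. Tdrd1, a partner of PIWIL2 and a component of the intermitochondrial cement, had 168 and 181 CPM against 148 and 149 CPM. The log2 fold changes were 0.29 ± 0.07 for Stk31 and 0.23 ± 0.06 for Tdrd1 (SE), both called in all 10 alternatives. Tdrd12, which also has helicase domains, had 46.7 and 46.0 CPM in the LPS columns and 40.5 and 37.1 CPM in the NC columns. It differed by 0.26 ± 0.07 on the log2 scale (adjusted p = 0.00528, edgeR) and was not called without NC library 2 (0.20). Tdrd7, needed for the remodelling of germ granules in spermatids, went the other way, with 155 and 167 CPM in the LPS columns against 180 CPM in both NC columns. At -0.16 ± 0.05 (edgeR, adjusted p = 0.0241), it was not called with library size as the only scaling (-0.10) or without LPS library 1 (-0.11), NC library 1 (-0.15) or NC library 2 (-0.16).

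The Tudor domain genes that were not called were Tdrd6, Tdrd9, Tdrd3, Rnf17 and Tdrkh. Tdrd6, a core protein of the chromatoid body and the most abundant of the family, had 679 and 738 CPM in the LPS columns and 739 and 742 CPM in the NC columns. The log2 fold change was -0.06 ± 0.05, and -0.001 with library size as the only scaling. Tdrd9, a helicase that works with PIWIL4 in fetal germ cells, had 122 and 116 CPM against 134 and 126 CPM, at -0.13 ± 0.06 without passing the test (edgeR, Benjamini-Hochberg adjusted p = 0.0847). Tdrkh, a mitochondrial protein needed for trimming of piRNA 3′ ends, was at 0.10 ± 0.06 and was called only with library size as the only scaling (0.17). Its exons overlap those of Oaz3 on the opposite strand, an abundant spermatid gene with 5221 and 5022 counts in the LPS columns and 6060 and 5984 in the NC columns. Rnf17 was at 0.07 ± 0.06, with its LPS libraries at 106 and 103 CPM just above the NC libraries at 102 and 97.5 CPM. Tdrd3, which is not restricted to germ cells, was at 0.00 ± 0.08 with overlapping libraries.

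Of the piRNA biogenesis factors 4 of 9 were higher, 1 was lower and 4 were not called. That is 55.6% called, against 31.5% of all genes tested. Asz1, a scaffold on the mitochondrial surface, had 25.1 and 21.7 CPM in the LPS columns and 16.0 and 18.4 CPM in the NC columns. The libraries of each group were spread but did not overlap. The difference of 0.45 ± 0.10 on the log2 scale (SE; adjusted p = 0.000371, edgeR with Benjamini-Hochberg adjustment) was called in all 10 alternatives, between 0.34 without LPS library 1 and 0.55 without NC library 2. Pld6, the mitochondrial endonuclease that makes piRNA 5′ ends, had 24.7 and 26.4 CPM in the LPS columns and 21.04 and 20.6 CPM in the NC columns. The groups did not overlap, and the log2 fold change of 0.29 ± 0.09 (edgeR, adjusted p = 0.00814) failed the test without LPS library 2 (0.25). Mov10l1, the helicase that binds piRNA precursors, had 148 and 146 CPM against 134 and 132 CPM. Replicates differed by less than the groups did, and the log2 fold change was 0.14 ± 0.05 (edgeR, adjusted p = 0.0462). It was not called when any single library was left out, at 0.13 without LPS library 1, 0.15 without LPS library 2, 0.16 without NC library 1 and 0.13 without NC library 2. Exd1, a partner of TDRD12, had 18.7 and 19.5 CPM in the LPS columns and 15.6 and 16.5 CPM in the NC columns. At 0.25 ± 0.10 it passed narrowly (edgeR, adjusted p = 0.0426) and was not called with no filter on low counts (0.26) or without LPS library 1 (0.28), LPS library 2 (0.22), NC library 1 (0.22) or NC library 2 (0.29).

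Gtsf1, a zinc finger cofactor of PIWI cleavage, was the biogenesis factor that was lower. It had 319 and 309 CPM in the LPS columns against 336 and 366 CPM in the NC columns, without overlap but with NC libraries farther apart than the gap between the groups. The log2 fold change was -0.16 ± 0.05 (SE; adjusted p = 0.0174, edgeR with Benjamini-Hochberg adjustment), not called with library size as the only scaling (-0.10) or without LPS library 2 (-0.14) or NC library 2 (-0.10). Henmt1, which methylates piRNA 3′ ends, Fkbp6, a co-chaperone of PIWI loading, and Gpat2, a mitochondrial protein that binds PIWIL2, were at -0.09 ± 0.10, -0.05 ± 0.09 and -0.05 ± 0.08. Pnldc1, the piRNA trimmer, had only 83 and 53 counts in the LPS columns and 74 and 64 in the NC columns, and a difference of the size seen, 0.16 ± 0.20, was within its error at this depth.

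Among the germ granule helicases and RNA-binding proteins, 3 of 6 tested were lower, 1 higher and 2 not called. The share called was 66.7%, against 31.5% of all genes tested. Ddx4 (Vasa), the germ granule helicase, had 593 and 585 CPM in the LPS columns and 660 and 665 CPM in the NC columns. Each group was tight and the groups did not overlap. The log2 fold change was -0.17 ± 0.05 (SE; edgeR, Benjamini-Hochberg adjusted p = 0.00772), and it missed the threshold with library size as the only scaling (-0.11). Ddx39, a nuclear helicase of RNA processing and export, had 94.5 and 92.7 CPM in the LPS columns against 111 and 113 CPM in the NC columns. At -0.26 ± 0.06 it was called lower in all 10 alternatives, the only member of which that holds. Its exons overlap those of Adgre5 on the opposite strand, with 115 and 115 counts in the LPS columns and 163 and 133 in the NC columns. Lsm14a, a component of P-bodies, had 25.6 and 26.7 CPM against 33.2 and 31.0 CPM. Lsm14a differed by -0.30 ± 0.08 on the log2 scale (adjusted p = 0.00362, edgeR) and was not called without NC library 1 (-0.24).

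Mov10, a helicase that restricts retroelements and is known to be induced by interferon, was the member of this group that was higher, with 11.9 and 10.3 CPM in the LPS columns and 8.77 and 8.14 CPM in the NC columns. The log2 fold change was 0.39 ± 0.12 (SE; edgeR, Benjamini-Hochberg adjusted p = 0.0117). It missed the threshold without LPS library 1 (0.29) or NC library 2 (0.34). Mov10 is also expressed outside the germline, unlike its germline relative Mov10l1. Ddx25, a spermatid helicase that exports mRNAs to the chromatoid body, had 407 and 401 CPM in the LPS columns and 404 and 434 CPM in the NC columns. Dazl, a translational regulator of germ cells, had 25.3 and 20.8 CPM against 22.4 and 25.0 CPM. Neither was called, at -0.05 ± 0.05 for Ddx25 and -0.04 ± 0.09 for Dazl, and both signs changed with the scaling. Nanos2, a regulator of spermatogonial stem cells, was at or under the floor of 3 counts in both groups, with 2 and 1 counts in LPS libraries and 1 and 0 in NC libraries, so no fold is given.

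Tex15, which in mouse is needed for PIWIL4-directed methylation of transposons and for meiotic recombination, had the lowest log2 fold change of the members. It had 51.3 and 40.9 CPM in the LPS columns against 59.9 and 56.4 CPM in the NC columns. LPS library 2 lay well below the other 3. The log2 fold change was -0.33 ± 0.08 (SE; edgeR, Benjamini-Hochberg adjusted p = 0.000861), -0.51 without LPS library 1 and -0.18 without LPS library 2, where it was not called. Gm14781, an X-linked gene at 91632194 to 91635671 on the plus strand of mm10, had 10.8 and 9.69 CPM against 12.3 and 11.1 CPM and was not called at -0.19 ± 0.12.

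**Figure D3:**
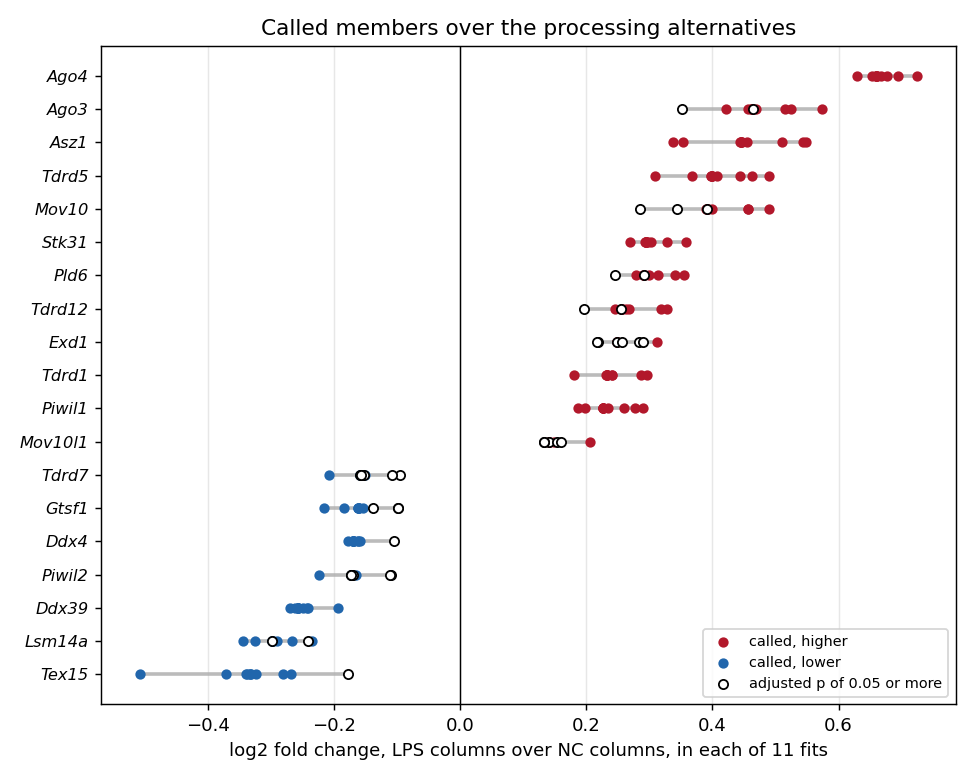
Log2 fold change (x axis) of the 19 called members in each of 11 fits, the reported one and 10 alternatives; filled points are called, open points have an adjusted p of 0.05 or more and grey lines span the range. Ago4, Asz1, Tdrd5, Stk31, Tdrd1, Piwil1 and Ddx39 have filled points only, and no called member crosses 0.

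The levels of the members spanned a wide range. Per gene length, Gtsf1 was the most abundant at 551 to 605 TPM over the 4 libraries, followed by Ddx4 at 510 to 543 TPM, Tdrd6 at 238 to 259 TPM and Piwil1 at 172 to 229 TPM. Ddx25 and Tdrd7 came next, and none of these first 6 overlapped with its neighbour in the order. From Mov10l1 downward most neighbours overlapped: Tdrd9, Tdrkh, Ddx39 and Rnf17 all had means between 47.6 and 55.1 TPM. Among tested members the lowest were Ago2, Ago1 and Ago3, at means of 2.37, 1.75 and 1.55 TPM. In all, 27 of 34 tested members lay above the median of the other genes tested. Fold changes were not taken from the TPM scale, because it shifted the median log2 difference between the groups over all genes tested to 0.10, against 0.00 on the TMM-scaled CPM scale. All 7 members called lower also had a lower mean TPM in the LPS columns, by log2 differences of -0.24 to -0.07.

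**Figure D4:**
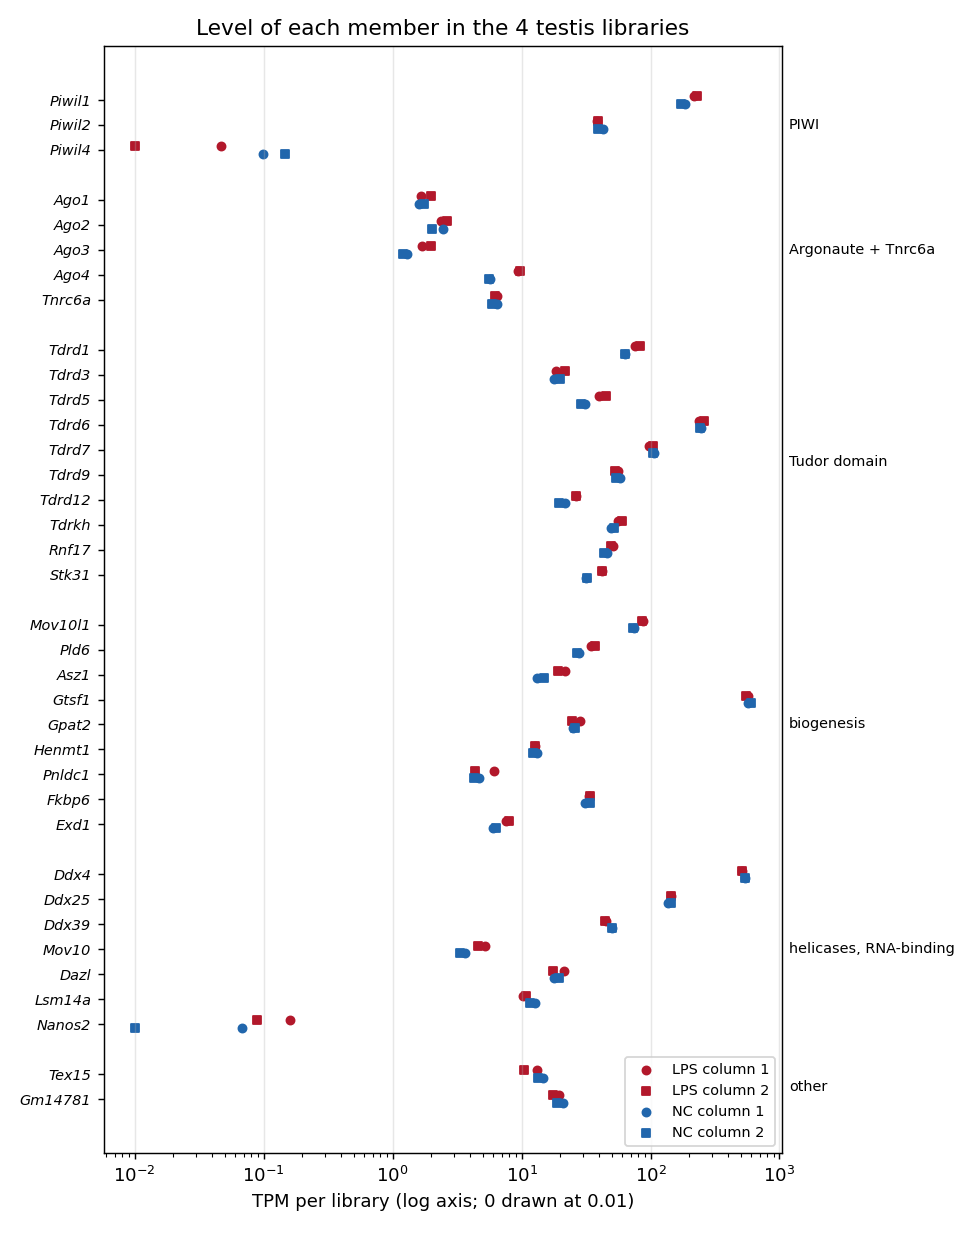
Level of each of the 36 members in TPM (x axis, log scale) in the LPS libraries (red) and the NC libraries (blue), grouped by role. Gtsf1 and Ddx4 lie farthest right, while Piwil4 and Nanos2 lie near or at 0.

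Other piRNA pathway genes outside the rule moved in both directions as well, with 47.1% called, against 31.5% of all genes tested. Of 17 tested, 6 were higher, 2 lower and 9 not called (DESeq2 called 3 higher and 1 lower, and edgeR without LPS library 2 or NC library 2 called 4 higher), with a median log2 fold change of 0.16. Mybl1, which encodes A-MYB and was singled out after its values were seen, had 65.5 and 68.0 CPM in the LPS columns and 53.6 and 50.1 CPM in the NC columns. It rose by 0.36 ± 0.07 (SE; edgeR, Benjamini-Hochberg adjusted p = 3.52e-05) and was called in all 10 alternatives. Tcfl5, the E-box factor named with the promoters, had 472 and 508 CPM in the LPS columns and 449 and 469 CPM in the NC columns, and was not called at 0.09 ± 0.05 (edgeR, adjusted p = 0.174). Prmt5, the arginine methyltransferase whose marks on PIWI proteins are read by Tudor domains, rose by 0.40 ± 0.08, and Dnmt3l, a cofactor of germline DNA methylation, had a log2 fold change of 0.79 ± 0.28. Dnmt3l was not called in DESeq2 or without LPS library 2 (0.70) or NC library 2 (0.60). Kif17, a kinesin with a role in the chromatoid body, fell by 0.28 ± 0.05 on the log2 scale. Morc1, a transposon silencing factor, was lower at -0.65 ± 0.19, and was not called in DESeq2 or without NC library 1 (-0.59).

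RNA decay genes of P-bodies and the chromatoid body had 5 higher and 1 lower of 16 tested (median 0.09), but the number higher was 1 in DESeq2 or without LPS library 2, 2 without NC library 1, 3 without LPS library 1, NC library 2 or the filter, and 8 with library size as the only scaling. The number lower was 0 in DESeq2, with library size as the only scaling, or without LPS library 1, NC library 1 or NC library 2. The share of decay genes called was 37.5%, against 31.5% of all genes tested. Upf1, the helicase of nonsense-mediated decay, rose by 0.33 ± 0.06 (SE) and held that call in all 10 alternatives. Of the 8 microRNA machinery genes, 0 were higher and 1 was lower, Tnrc6b at -0.31 ± 0.07, with a median of -0.02. Library size as the only scaling gave 2 of them higher. The shares called were 12.5% of these genes and 13.3% of the other germline RNA-binding protein genes tested. Of 15 other germline RNA-binding protein genes, 2 were higher and 0 lower, with a median of 0.02, against 0 higher in DESeq2 or without NC library 2, 1 without LPS library 1 or NC library 1, and 5 with scaling by library size alone, and 1 lower with limma-voom.

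Among markers of the germ cell stages, 77.8% of the round spermatid list, 75.0% of the elongating spermatid list, 41.7% of the spermatogonia list and 23.1% of the spermatocyte list were called, against 31.5% of all genes tested. Round spermatid markers were lower in 6 of 9 and higher in 1 (higher in 2 without NC library 2, without the filter, with the replicate block or with library size as the only scaling, lower in 3 without either NC library, and in 2 with library size as the only scaling). Elongating spermatid markers were lower in 9 of 12 and higher in 0. DESeq2 called 6 of them lower, and edgeR with library size as the only scaling called 7 lower. Their summed levels were 27756 to 27833 CPM in the LPS columns and 35618 to 36314 CPM in the NC columns. Odf2 and Prm2 had the highest CPM of the list, without correction for gene length. In TPM, Odf2 had means of 2324 in the LPS columns and 2567 in the NC columns. It lay below Prm2, Tnp1, Tnp2 and Prm1, among others, in every library. Prm2 had 6583 and 6422 CPM against 10898 and 10073 CPM, and Odf2 had 9172 and 9456 CPM against 10921 and 11031 CPM. Spermatocyte markers were higher in 1 and lower in 2 of 13 (2 and 1 without LPS library 2, 1 lower in DESeq2, 2 higher with scaling by library size alone), with summed levels of 3947 to 4101 CPM in the LPS columns and 4020 to 4268 CPM in the NC columns. Spermatogonia markers were higher in 4 and lower in 1 of 12, with summed levels of 493 to 494 CPM against 474 to 491 CPM (higher in 1 in DESeq2 or without NC library 1, in 2 without LPS library 2, and lower in 0 in each of these). The 36 members summed to 4004 and 4080 CPM in the LPS columns and 4075 and 4110 CPM in the NC columns. None of the germ cell markers was at 0 in a whole group. The part of germ cell proportions in the members' differences was not tested.

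Among Sertoli, Leydig and macrophage markers, 60.0%, 75.0% and 87.5% were called, against 31.5% of all genes tested. Of 10 Sertoli cell markers 5 were higher, 1 lower and 4 not called. Their summed levels were 974 to 980 CPM in the LPS columns and 743 to 745 CPM in the NC columns. Clu alone made up most of these sums, with 774 and 765 CPM in the LPS columns and 563 and 557 CPM in the NC columns. Of 8 Leydig cell markers 1 was higher (0 without LPS library 2 or in DESeq2) and 5 lower (452 to 523 CPM against 866 to 906 CPM), and of 8 macrophage markers 5 were higher and 2 lower (77.6 to 88.1 CPM against 50.9 to 55.8 CPM). Of 8 lymphocyte markers 2 could be tested, and 1 of them, Ptprc, which marks all leukocytes, was higher, with 3.80 and 4.98 CPM in the LPS columns and 1.41 and 1.27 CPM in the NC columns. The other 7 summed to 1.72 and 1.57 CPM in the LPS columns and 1.68 and 1.80 CPM in the NC columns, so the groups overlapped, and Nkg7 was at 0 in both LPS libraries. Without the filter on low counts, 1 gene of the list was called lower. These values stand beside Mov10, Ago1 to Ago4, Tdrd3, Tnrc6a, Lsm14a and Ddx39 in particular, which are not restricted to germ cells. The part of these cell types in the results was not tested.

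**Figure D5:**
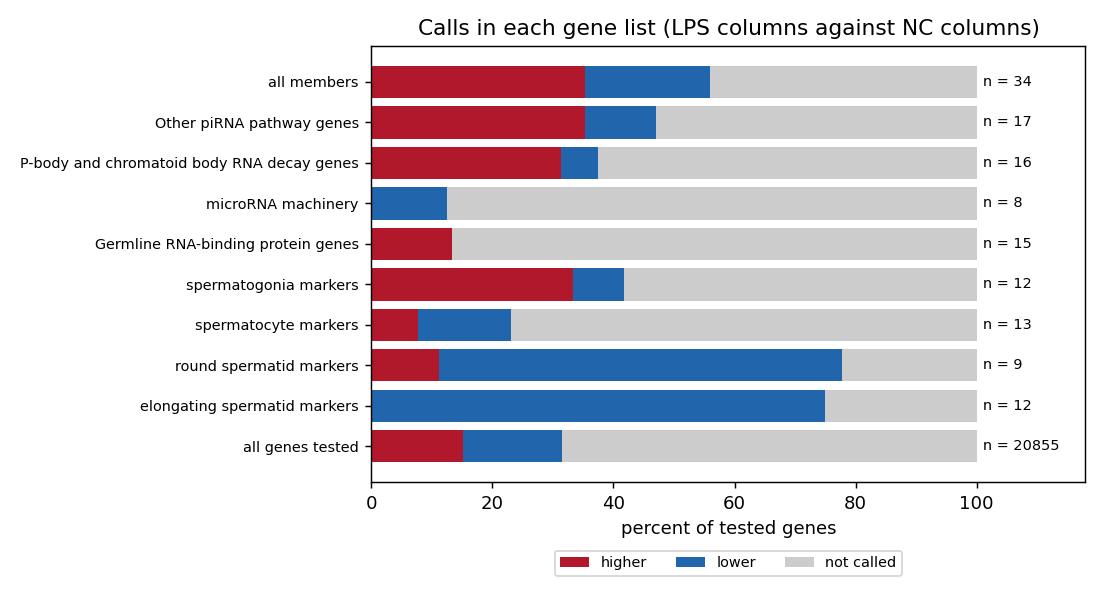
Percent of tested genes called higher (red), lower (blue) or not called (grey) in each gene list, with the number tested at the right. The members have 12 higher and 7 lower of 34; elongating spermatid markers have 0 higher and 9 lower of 12, and the bottom bar gives all 20855 genes tested.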

How the data were processed

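RNA was sequenced from whole testis in 4 libraries. The authors deposited 1 table of raw read counts per gene with the exonic length of each gene. Per the submitters' processing notes, the tools named were STAR 2.5.3a, DESeq, edgeR 3.12.1, Trimmomatic 0.36 and featureCounts (Subread 1.5.1), and the build mm10, in an order not given in the sources used here; the annotation, strand setting and any molecular identifiers are likewise not given. Columns were assigned to groups by reading their headings. Members and gene lists were chosen with earlier results of these data known, and every member may be named. In other lists, the genes named are mostly those called with the largest changes.

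Genes were filtered with filterByExpr, scaled by TMM and compared with edgeR 4.0.16's quasi-likelihood test without a block (2 residual and 34.0 prior degrees of freedom), with Benjamini-Hochberg adjustment over 20855 genes and a threshold of 0.05. The SE is that implied by the F statistic. The procedure was tested on simulated data. TPM was computed from the counts and lengths. Of gene rows, 91.0% had the span of a GENCODE M21 gene, and 29 of 36 members had both span and symbol; exons of 10 members overlap another gene's. Total counts were 19187627 and 17612342 (LPS) and 22451132 and 21081589 (NC); a count of 0 allows up to 0.152, 0.168, 0.136 and 0.146 CPM, by a floor of 3 counts, for counting error only. Replicates differed by more than sampling noise (chi-square per degree of freedom 2.31 and 2.20). Alternatives were DESeq2 1.42.0, limma-voom (limma 3.58.1), library size only, DESeq2 size factors, no filter, a replicate block and leaving out each library.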

Additional observations from a re-analysis of the deposited data

How the results depend on the processing

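Of the 19 called members, 7 kept their call and direction in all 10 alternatives, 6 higher and 1 lower. DESeq2 called 1454 genes higher and 1845 lower, against 3169 and 3394 in edgeR, with 6 members higher and 4 lower; library size only left 3 members lower (13 higher), with all genes at 4207 higher and 2579 lower. Leaving out single libraries gave 8 to 10 members higher and 4 to 5 lower. The cause was not tested. No called member changed sign. Among members not called, library size only turned Dazl to 0.028, Ddx25 to 0.012, Fkbp6 to 0.012, Gpat2 to 0.009, Tdrd3 to 0.059 and Tnrc6a to 0.007, and Oaz3 beside Tdrkh to 0.009; no filter turned Tdrd3 to 0.003. Without single libraries the log2 fold change ranged from -0.089 to 0.168 for Ago1, -0.058 to 0.195 for Ago2, -0.185 to 0.094 for Dazl, -0.096 to 0.002 for Ddx25, -0.122 to 0.028 for Fkbp6, -0.166 to 0.047 for Gpat2, -0.127 to 0.377 for Pnldc1, -0.111 to 0.101 for Tdrd3 and -0.105 to 0.003 for Tnrc6a. With the replicate block, 12 members were higher and 7 lower (3376 and 3594 genes), and no member's call changed; libraries of the same number share only that number (correlation of their deviations 0.014). Pnldc1, Piwil4 and Nanos2 had fewer counts in each library than every other member and are limited most by depth.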
